A study of Mus musculus with 12 samples.

Results

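The 4 Janus kinase genes *Jak1*, *Jak2*, *Jak3* and *Tyk2* and the 5 STAT genes *Stat3*, *Stat4*, *Stat5a*, *Stat5b* and *Stat6* are described here in mouse CD4 T-blast cells, from RNA-Seq of 12 libraries in 4 groups of 3. The 9 genes were chosen by name, of 24439 gene names in each table, and all 9 passed the filter on low values. All groups came from spleen CD4 T cells of C42 mice on a C57BL/6 background (C57BL/6J in the methods), which carry a transgenic fragment of the human *IL3*/*CSF2* locus, and the cells were isolated with CD4 microbeads. They were stimulated with 2 µg/ml concanavalin A (a lectin that activates T cells) for 40 h and expanded in 50 U/ml IL-2, for about 2 days by the labels and for 30 h by the methods. A further 16 h followed with IL-2 (TB IL-2) or without it (TB IL-2nil). Cells of both kinds were also given 20 ng/ml PMA with 2 µM of the calcium ionophore A23187 for 2 h, which stands in for signaling from the T cell receptor (PMA/I, here TB+ IL-2 and TB+ IL-2nil). The comparisons ask how the transcripts of this pathway differ with IL-2, with PMA/I, and with both.

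Janus kinases are bound to the inner parts of cytokine receptors and phosphorylate each other and the receptor once a cytokine brings the chains together. STAT proteins dock on the receptor, are phosphorylated, pair and enter the nucleus, where they bind DNA. The IL-2 receptor works through JAK1, bound to its beta chain, and JAK3, bound to the common gamma chain, and mainly through STAT5A and STAT5B, which are encoded by a pair of neighboring paralogs. JAK2 and TYK2 serve other receptors, such as those of IL-12, interferon gamma and type I interferons. Activation of these proteins is by phosphorylation, which was not measured in these libraries, so all values below are transcript levels.

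By the GENCODE M1 models on mm9, *Jak1* lies on chromosome 4 from 100824972 to 100937887 (minus strand), *Jak2* on chromosome 19 from 29326318 to 29387570 (plus), *Jak3* on chromosome 8 from 74200195 to 74214474 (plus) and *Tyk2* on chromosome 9 from 20908521 to 20931790 (minus). *Stat4* lies on chromosome 1 from 52043992 to 52164032 (plus) and *Stat6* on chromosome 10 from 127080042 to 127098013 (plus). The other 3 genes form a cluster on chromosome 11, with *Stat5b* from 100642045 to 100712038 (minus), *Stat5a* from 100720665 to 100746483 (plus) and *Stat3* from 100746412 to 100800854 (minus). *Stat5b* and *Stat5a* are thus divergent genes 8626 bp apart, and the 3′ ends of *Stat5a* and *Stat3* overlap by 72 bp on opposite strands. The longest *Stat5a* and *Stat5b* transcripts share a run of 324 identical bases, from 571 to 894 of both coding sequences. Of the 50-base words of *Stat5a*, 15.8% also occur in *Stat5b*, and 11.8% of those of *Stat5b* occur in *Stat5a*. For 75-base words the shares are 10.1% and 7.53%. Reads from these stretches could be divided between the paralogs in either way, so their separate levels are less certain than their sum. No other pair of the 9 shared a 50-base word.

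The start regions of *Jak2*, *Stat5a*, *Stat5b*, *Stat4* and *Jak1* are shown because *Jak2* and *Stat5a* were the members that rose with PMA/I, *Stat5b* is the paralog of *Stat5a* that did not pass that test, and *Stat4* and *Jak1* were lower with IL-2. They are RefSeq promoter windows (GRCm38.p6) of 250 bases before each start, of which the longest stretch outside the exons of GENCODE M1 is printed for 1 window a gene, 5′ to 3′ on the strand of the gene. Each whole window of 300 bases was found once, without mismatch, on the gene's strand of its own mm9 chromosome. Other chromosomes were not searched for it. *Stat4*, *Stat5a* and *Stat5b* have 2 windows each, and the one at the more upstream start is shown for *Stat4* and *Stat5b*, and that with more bases outside exons for *Stat5a*. Capitals mark a GC box (GGGCGG, a site of SP-family factors) or a CRE (TGACGTCA, the cyclic AMP response element).
*Jak2*, chr19:29326043-29326292, plus strand: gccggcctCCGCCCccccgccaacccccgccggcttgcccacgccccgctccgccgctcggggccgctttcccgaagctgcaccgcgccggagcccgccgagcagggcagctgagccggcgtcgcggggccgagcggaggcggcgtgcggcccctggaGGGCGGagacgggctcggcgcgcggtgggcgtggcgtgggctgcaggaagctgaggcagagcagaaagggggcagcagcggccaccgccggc
*Stat5a*, chr11:100721548-100721658, plus strand: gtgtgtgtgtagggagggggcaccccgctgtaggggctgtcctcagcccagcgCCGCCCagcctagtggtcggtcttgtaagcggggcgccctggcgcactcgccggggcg
*Stat5b*, chr11:100712039-100712145, minus strand: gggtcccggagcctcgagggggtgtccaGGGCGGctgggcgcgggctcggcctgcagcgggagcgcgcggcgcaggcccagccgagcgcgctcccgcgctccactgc
*Stat4*, chr1:52043742-52043991, plus strand: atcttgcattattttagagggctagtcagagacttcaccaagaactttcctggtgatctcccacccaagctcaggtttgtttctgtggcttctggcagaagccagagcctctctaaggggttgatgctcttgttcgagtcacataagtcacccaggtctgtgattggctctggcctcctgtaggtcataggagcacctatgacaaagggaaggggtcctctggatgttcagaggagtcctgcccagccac
*Jak1*, chr4:100937888-100938078, minus strand: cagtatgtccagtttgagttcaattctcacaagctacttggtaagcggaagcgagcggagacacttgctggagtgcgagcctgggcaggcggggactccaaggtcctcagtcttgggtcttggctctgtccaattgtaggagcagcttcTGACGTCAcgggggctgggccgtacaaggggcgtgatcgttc
Over the 12 whole windows of the 9 genes, 300 bases each, matches on either strand were counted. A GC box was present in 7 of the 12 windows (7 of the 9 genes), against 35.7% of 32851 windows of all genes, and the CRE in *Jak1* at position -101 (counted back from -1, the base before the start) was the only one, against 1.79% of all windows. STAT sites spelled TTCNNNGAA or TTCNNNNGAA, AP-1 sites (TGANTCA), EGR sites (GCGNGGGCG) and NF-kB sites (GGGNNNTTCC) were not found in any of the 12, where 8.3%, 6.95%, 7.81%, 5.55% and 5.56% of all windows hold one. The NF-kB site and the GC box were added to the search after the other 5 motifs had been counted. Such matches are letters only, and these windows do not cover distal elements.

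The library labelled TB IL-2nil replicate 3 and that labelled TB+ IL-2 replicate 3 were placed in each other's group. To check this, the deposited FPKM were converted to TPM and genes over 1 TPM in any library were kept. The 12 libraries were then quantile normalized, which gives all of them 1 common distribution. Values of the study's own gene table (1391 genes) met those of the same-labelled library, within 0.1%, for 10 of 12 columns. The columns of these 2 libraries each held the values of the other library. *Il2*, the cytokine gene induced by PMA/I, was at 1368 FPKM in the library labelled TB IL-2nil replicate 3 and at 0.29 FPKM in that labelled TB+ IL-2 replicate 3. As placed, *Il2* ranged from 1095 to 2374 FPKM in the 6 PMA/I libraries and from 0 to 1.18 FPKM in the other 6. The tables hold no read counts. From the steps between low values, depth ranged over 3.05-fold between libraries. Short RNAs, known by their gene names, made up 16.6 to 43.8% of the summed FPKM in TB IL-2, 21.3 to 37.5% in TB IL-2nil, 22.2 to 27.5% in TB+ IL-2 and 33.0 to 53.2% in TB+ IL-2nil, with the last 2 groups apart. They enter the sum used for TPM, and their part in the calls below that were lost or gained without scaling was not tested. The summed level of 6 CD4 T cell markers was 1185 to 2164 TPM in all libraries, while that of 4 B cell markers was 2.36 to 29.6 TPM and that of 2 CD8 T cell markers 6.91 to 31.9 TPM. The NK cell marker *Ncr1* was listed at 0 in all 12. B cell markers were highest in TB IL-2nil, at 23.2 to 29.6 TPM against 5.94 to 10.5 TPM in TB IL-2, 2.36 to 3.31 TPM in TB+ IL-2 and 5.49 to 12.7 TPM in TB+ IL-2nil, and the CD4 T cell markers were at 2021 to 2164 TPM in TB IL-2nil against 1204 to 1291 TPM in TB IL-2. Their part in the results below was not tested. Fewer cells of a type and less RNA per cell cannot be told apart in such bulk samples.

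Resting here means only that no PMA/I was given, since the paper describes T-blast cells as actively dividing. With IL-2 in resting T-blast cells, 6 of the 9 genes were lower and none was higher. *Jak1*, *Jak2*, *Tyk2*, *Stat4*, *Stat5b* and *Stat6* passed the test (limma over 12442 genes, Benjamini-Hochberg adjusted P under 0.05), while *Jak3*, *Stat3* and *Stat5a* did not. The background was 22.3% of all genes lower and 17.3% higher. Only *Stat4* was also more than 3-fold lower, a size that 2.73% of all genes reached, and 4.69% were more than 3-fold higher. The median of the 9 log2 differences was -0.82, against -0.13 over all genes. Without the 2 relocated libraries 5 genes passed, all but *Tyk2* of these 6, and with the libraries taken as labelled none of the 9 did, with 2 at an unadjusted P under 0.05. With the replicate number as a block, 7 passed, the seventh being *Stat3*.

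With PMA/I in the presence of IL-2, *Jak2* and *Stat5a* rose, both more than 3-fold, and no member fell. Over all genes 11.8% rose and 23.3% fell, and more than 3-fold changes were 3.94% upward and 3.10% downward. The median of the 9 was 0.047 against -0.22 over all genes. After IL-2 withdrawal, *Jak2* and *Stat5a* again rose more than 3-fold, and *Jak1*, *Tyk2* and *Stat4* fell, each less than 3-fold. In that comparison 20.1% of all genes rose and 41.1% fell, so a fall was common, and 7.78% rose and 10.7% fell more than 3-fold. The median of the 9 was 0.13 against -0.38. Both comparisons kept *Jak2* and *Stat5a* without the 2 relocated libraries. Taken as labelled, no member passed in either, with 2 in each at an unadjusted P under 0.05, namely *Jak2* and *Stat5a*.

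Among the PMA/I-treated cells, 3 genes were lower with IL-2 than without, *Jak1*, *Stat5b* and *Stat6*, and none was higher. Here 8.40% of all genes were lower and 12.9% higher, and more than 3-fold differences, which no member showed, were 0.410% and 3.21%. The median of the 9 was -0.63 against -0.042. This count was the least stable, with 1 gene (*Jak1*) without the 2 relocated libraries, none as labelled (also none at an unadjusted P under 0.05) and 5 with the replicate block. Leaving out 1 library at a time gave 1 to 4 genes, with 1 left without the library labelled TB IL-2nil replicate 3 or without TB+ IL-2 replicate 1. The 4 comparisons share groups, so their results are not independent. The design also allows a test of whether the effect of IL-2 differs with PMA/I. It passed for none of the 9, also at an unadjusted P under 0.05, while 1.57% of all genes had a higher and 2.66% a lower interaction. The median of the 9 was 0.20 against 0.16 over all genes.

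**Figure D1:**
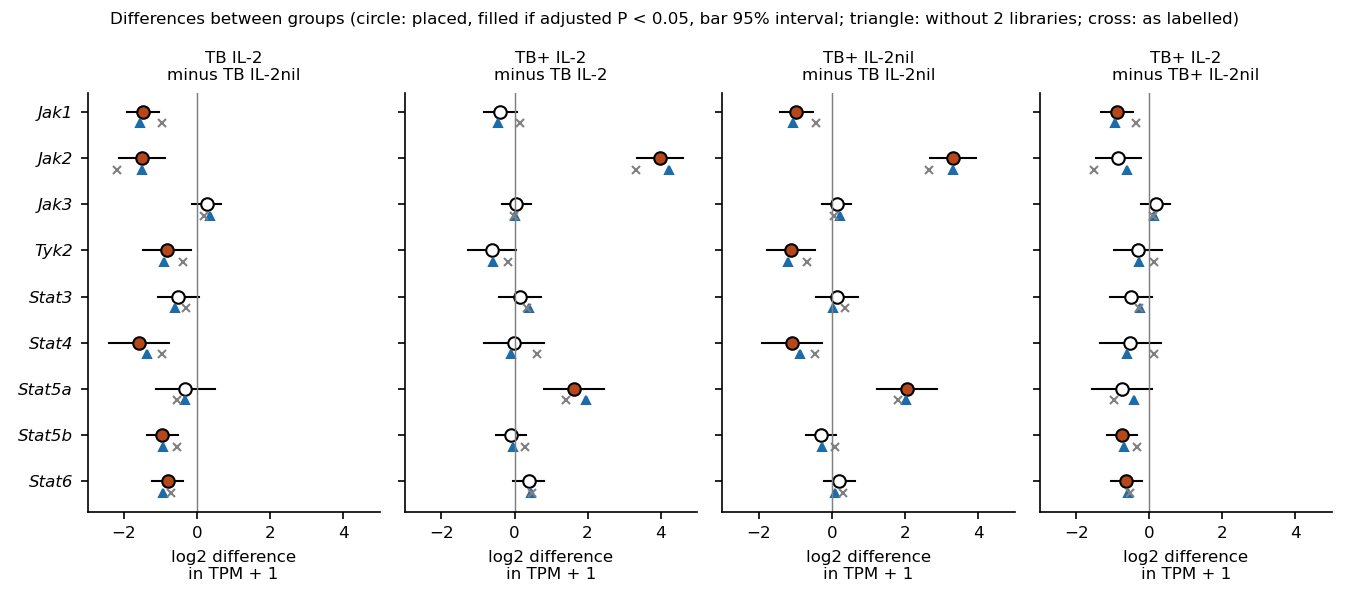
Differences of the 9 genes in 4 comparisons, in log2(TPM + 1) on the x axis. Circles are the libraries as placed, filled where the adjusted P was under 0.05, with bars for the 95% interval, triangles leave out the 2 relocated libraries and crosses take all libraries as labelled. *Jak2* and *Stat5a* lie to the right in both PMA/I comparisons, and 8 of 9 circles lie left of 0 for IL-2 in TB cells.

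*Jak2* had the largest change of the 9. This kinase serves the receptors of interferon gamma, IL-12 and several hematopoietic cytokines. Levels are given in TPM, corrected for gene length and thus comparable between genes of a library, after all libraries were brought to a common 75th percentile, so that they are no longer shares of each library's total, and within a group replicates 1, 2 and 3 are listed in turn, with the relocated library as the third of TB IL-2nil and of TB+ IL-2. *Jak2* was at 51.9, 28.4 and 35.4 in TB IL-2 and at 104, 113 and 109 in TB IL-2nil. After PMA/I it was at 709.9, 722 and 441 in TB+ IL-2 and at 1394, 1244 and 760.5 in TB+ IL-2nil. No 2 groups overlap, and the lowest PMA/I library is that labelled TB IL-2nil replicate 3, at 441. The group means were 38.6 ± 12.1, 109 ± 4.35, 624 ± 159 and 1133 ± 331 TPM (SD, n = 3 each). PMA/I raised *Jak2* by 3.99 on the log2(TPM + 1) scale with IL-2 (SE 0.28, 15.9-fold, adjusted P = 3.65e-06) and by 3.32 without it (SE 0.28, 9.98-fold, adjusted P = 5.18e-06). Over 21 alternatives that kept the placement, 12 of which leave out 1 library, the first value ranged from 3.70 to 4.22 and the second from 2.77 to 3.58, all with an adjusted P under 0.05. As labelled, they were 3.32 (adjusted P = 0.0795) and 2.65 (adjusted P = 0.0623). In resting cells *Jak2* was lower with IL-2, with a difference of -1.52 (SE 0.28, 2.86-fold, adjusted P = 0.00211), and the same value without the relocated libraries had an adjusted P of 0.00714. After PMA/I it was at -0.85 with IL-2 relative to without (SE 0.28, adjusted P = 0.0551). That value passed with the replicate block (adjusted P = 0.022) and in 5 other alternatives, among them without TB+ IL-2nil replicate 3 (-1.11, adjusted P = 0.0217) or TB IL-2 replicate 1 (-0.85, adjusted P = 0.0438), and was -0.61 (adjusted P = 0.238) without the relocated libraries.

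*Jak1* encodes the kinase bound to the IL-2 receptor beta chain. It was at 157, 126 and 155 TPM in TB IL-2 and at 424, 431 and 368 TPM in TB IL-2nil, at 123, 90.7 and 122 TPM in TB+ IL-2, and at 248, 154 and 227 TPM in TB+ IL-2nil. TB IL-2nil stands above all other groups, while TB+ IL-2nil reaches down into the range of TB IL-2. *Jak1* was lower with IL-2, with differences of -1.48 (SE 0.20, 2.80-fold, adjusted P = 0.0004) in resting cells and -0.89 (SE 0.20, 1.85-fold, adjusted P = 0.0117) after PMA/I. PMA/I lowered it without IL-2, where it fell by 0.98 (SE 0.20, 1.97-fold, adjusted P = 0.00161), and the value with IL-2 was -0.39 (SE 0.20, adjusted P = 0.167). Without the relocated libraries these 3 calls stood at -1.56 (adjusted P = 0.00265), -0.95 (adjusted P = 0.0414) and -1.06 (adjusted P = 0.00549). The difference after PMA/I was lost without scaling between libraries (-0.50, adjusted P = 0.417).

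*Jak3*, the gene of the kinase bound to the common gamma chain, was the most even of the 4. It was at 58.0, 66.5 and 75.5 TPM in TB IL-2, at 55.4, 47.4 and 63.8 TPM in TB IL-2nil, at 69.8, 62.8 and 73.4 TPM in TB+ IL-2 and at 67.6, 48.9 and 66.9 TPM in TB+ IL-2nil, with all 4 ranges overlapping. Its log2 differences were 0.26 (95% interval -0.13 to 0.66) with IL-2 in resting cells, 0.047 (-0.35 to 0.44) with PMA/I in IL-2, 0.13 (-0.26 to 0.53) with PMA/I after withdrawal and 0.18 (-0.22 to 0.57) with IL-2 after PMA/I. None passed in any of 22 alternatives. *Jak3* overlaps *Insl3* by 1362 bp on the same strand, but *Insl3* was at most 1.13 FPKM.

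*Tyk2*, a kinase of the type I interferon and IL-12 receptors, was the lowest of the kinases. It was at 27.6, 13.9 and 19.1 TPM in TB IL-2, at 40.0, 34.5 and 31.6 TPM in TB IL-2nil, at 17.3, 9.09 and 12.1 TPM in TB+ IL-2 and at 19.6, 10.7 and 18.3 TPM in TB+ IL-2nil. TB IL-2nil lies above the other 3 groups, which overlap. With PMA/I after withdrawal it fell by 1.12 (SE 0.30, 2.17-fold, adjusted P = 0.00706), and the value was -1.20 (adjusted P = 0.0203) without the relocated libraries. In resting cells the difference with IL-2 was -0.82 (SE 0.30, 1.77-fold, adjusted P = 0.0471). This call was near its threshold and was lost in 11 of 21 placed alternatives, in 7 of them by leaving out a library, TB IL-2 replicate 2 (-0.60, adjusted P = 0.175) or 3, TB IL-2nil replicate 1, 2 or 3, TB+ IL-2 replicate 3 or TB+ IL-2nil replicate 3 by their labels, with adjusted P values from 0.0532 to 0.175. With PMA/I in IL-2 it was at -0.61 (adjusted P = 0.136, and 0.0182 with the replicate block). An antisense model of GENCODE M1 covers *Tyk2* over its whole length, and the use of strand in the authors' quantification is not given in the sources used here.

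**Figure D2:**
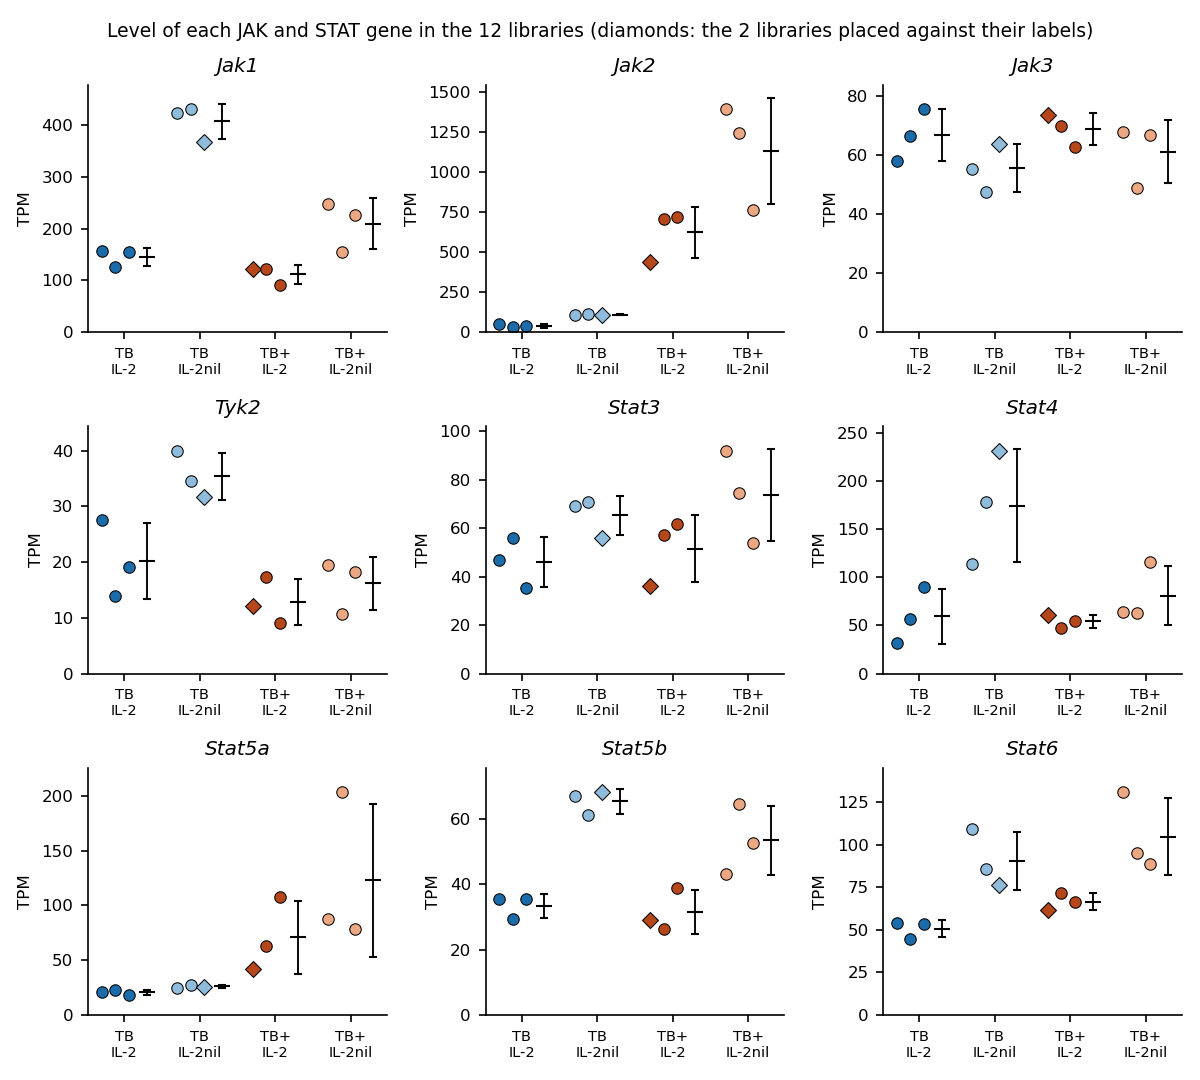
Level of the 9 genes in each library in TPM (y axis, from 0) by group (x axis). Points are libraries, diamonds are the 2 libraries placed against their labels, and black marks give the mean and SD of 3 libraries. *Jak2* lies between 28.4 and 113 TPM without PMA/I and between 441 and 1394 TPM with it.

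The make-up of the kinase transcripts differed with these levels. In TB IL-2, *Jak1* made up 53.2 to 54.4% of the summed TPM of the 4 kinases, *Jak3* 19.7 to 28.4%, *Jak2* 12.1 to 17.7% and *Tyk2* 5.94 to 9.38%. In TB IL-2nil, *Jak1* was at 64.3 to 68.9% and *Jak3* at 7.57 to 11.1%. After PMA/I *Jak2* was the largest part, with 68.1 to 81.6% in TB+ IL-2 and 70.9 to 85.3% in TB+ IL-2nil, and *Jak1* was at 10.3 to 18.8% and 10.6 to 21.2%. The summed level itself was 271 ± 32.1, 608 ± 29.9, 817 ± 148 and 1420 ± 329 TPM (SD, n = 3) in TB IL-2, TB IL-2nil, TB+ IL-2 and TB+ IL-2nil. These shares are descriptions and were not tested.

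**Figure D3:**
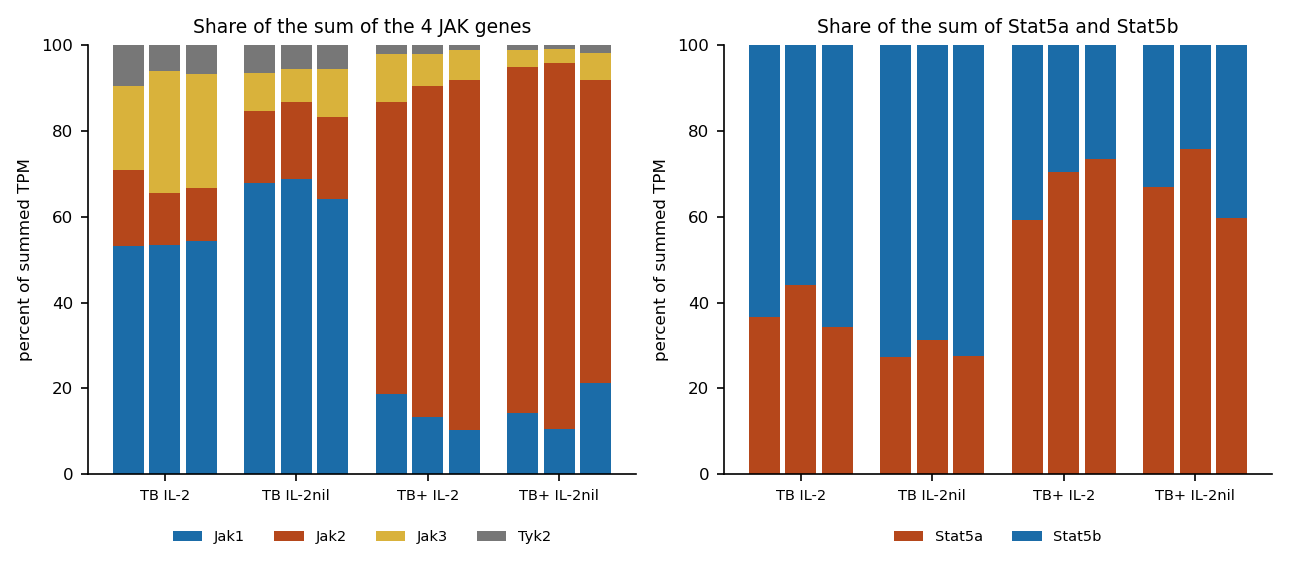
Percent of the summed TPM (y axis, 0 to 100) of the 4 kinase genes (left) and of *Stat5a* with *Stat5b* (right), 1 bar per library as placed, with the relocated library on the left in TB+ IL-2 and on the right in TB IL-2nil. *Jak1* is the largest part in all 6 libraries without PMA/I and *Jak2* in all 6 with it, and *Stat5a* is above 50% only with PMA/I.

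*Stat5a*, one of the paralogs through which IL-2 acts, differed with PMA/I. It was at 20.6, 23.2 and 18.6 TPM in TB IL-2 and at 25.1, 27.7 and 25.8 TPM in TB IL-2nil, and at 63.1, 108 and 42.4 TPM in TB+ IL-2 and 87.3, 203 and 78.1 TPM in TB+ IL-2nil. All 6 PMA/I libraries are above all others, but they vary widely, and the replicate 2 library is the highest in both groups. PMA/I raised it by 1.63 with IL-2 (SE 0.37, 3.09-fold, adjusted P = 0.00619) and by 2.05 without (SE 0.37, 4.14-fold, adjusted P = 0.000635). Without the relocated libraries the values were 1.95 (adjusted P = 0.00629) and 2.04 (adjusted P = 0.0022), and over the placed alternatives they ranged from 1.28 to 1.95 and from 1.51 to 2.30, all with an adjusted P under 0.05. The former is thus near the 3-fold size. As labelled they were 1.40 (adjusted P = 0.249) and 1.82 (adjusted P = 0.0595). With IL-2, *Stat5a* was at -0.32 (95% interval -1.14 to 0.49, adjusted P = 0.511) in resting cells and at -0.75 (-1.56 to 0.066, adjusted P = 0.176) after PMA/I. Its ranges in TB IL-2 and TB IL-2nil did not overlap. The value after PMA/I was nearly the same for *Stat5b*, which had a smaller SE.

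*Stat5b*, its paralog, passed the test with IL-2, while a difference between the paralogs was not tested. It was at 35.5, 29.2 and 35.6 TPM in TB IL-2 and 66.9, 61.0 and 68.1 TPM in TB IL-2nil, with no overlap, and at 26.3, 38.96 and 29.1 TPM in TB+ IL-2 and 43.1, 64.4 and 52.6 TPM in TB+ IL-2nil. It was lower with IL-2, with differences of -0.95 (SE 0.19, 1.93-fold, adjusted P = 0.00304) in resting cells, a call that passed in all 21 placed alternatives, and -0.75 (SE 0.19, 1.68-fold, adjusted P = 0.0188) after PMA/I. The latter was lost without the library labelled TB IL-2nil replicate 3 (-0.70, adjusted P = 0.0702), without TB+ IL-2 replicate 1 (-0.63, adjusted P = 0.063), without TB+ IL-2nil replicate 2 (-0.60, adjusted P = 0.0553), without both relocated libraries (-0.70, adjusted P = 0.0942) and without scaling. With PMA/I it was at -0.10 (adjusted P = 0.716) in IL-2 and at -0.30 (adjusted P = 0.187) after withdrawal, where it passed without scaling (-0.85, adjusted P = 0.0468) and with quantile normalization (-0.50, adjusted P = 0.0332).

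The share of each paralog differed between libraries with and without PMA/I, as a description without a test. *Stat5a* was 36.7, 44.2 and 34.3% of their summed TPM in TB IL-2 and 27.2, 31.3 and 27.5% in TB IL-2nil, and 59.3 to 73.4% in TB+ IL-2 and 59.8 to 75.9% in TB+ IL-2nil. The sum was 54.2 ± 1.87 TPM in TB IL-2, 91.5 ± 2.61 TPM in TB IL-2nil, 103 ± 39.3 TPM in TB+ IL-2 and 176 ± 79.2 TPM in TB+ IL-2nil (SD, n = 3).

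*Stat4* encodes the factor through which IL-12 acts in Th1 cells. It was at 32.1, 56.8 and 89.7 TPM in TB IL-2 and at 114, 178 and 232 TPM in TB IL-2nil, with no overlap but a wide spread in both. The highest value is that of the library labelled TB+ IL-2 replicate 3. After PMA/I it was at 47.6, 54.3 and 60.8 TPM in TB+ IL-2 and 64.5, 62.8 and 116 TPM in TB+ IL-2nil. *Stat4* was lower with IL-2 in resting cells, with a difference of -1.60 (SE 0.38, 3.02-fold, adjusted P = 0.00682). It was -1.37 (adjusted P = 0.0367) without the relocated libraries and -1.95 to -1.22 over the 21 placed alternatives, all with an adjusted P under 0.05 but not all over 3-fold. With PMA/I after withdrawal it fell by 1.10 (SE 0.38, 2.14-fold, adjusted P = 0.0251), a call lost without the relocated libraries (-0.87, adjusted P = 0.112), without the filter (-0.90, adjusted P = 0.0975), and without TB IL-2nil replicate 2 (-1.05, adjusted P = 0.0632), the library labelled TB+ IL-2 replicate 3 (-0.87, adjusted P = 0.0943), TB+ IL-2nil replicate 1 (-0.97, adjusted P = 0.0808) or TB+ IL-2nil replicate 2 (-0.95, adjusted P = 0.0839). With PMA/I in IL-2 it was at -0.021 (95% interval -0.85 to 0.80), and with IL-2 after PMA/I at -0.52 (-1.35 to 0.31).

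*Stat6*, which acts downstream of IL-4, was at 54.1, 44.9 and 53.1 TPM in TB IL-2 and 109, 85.4 and 76.4 TPM in TB IL-2nil, and at 71.4, 66.3 and 61.4 TPM in TB+ IL-2 and 131, 95.2 and 88.3 TPM in TB+ IL-2nil. The libraries with IL-2 were below those without it, both before and after PMA/I. It was lower with IL-2 in resting cells, with a difference of -0.81 (SE 0.19, 1.75-fold, adjusted P = 0.00652), or -0.92 (adjusted P = 0.0128) without the relocated libraries, a call lost without scaling (-0.89, adjusted P = 0.059). After PMA/I the difference was -0.63 (SE 0.19, 1.55-fold, adjusted P = 0.0365), and this was lost in 8 of 21 placed alternatives, among them both other scalings, leaving out both relocated libraries (-0.57, adjusted P = 0.129), and leaving out the library labelled TB IL-2nil replicate 3, TB IL-2 replicate 3, TB+ IL-2 replicate 1 or 2 or TB+ IL-2nil replicate 1 (adjusted P = 0.0518 to 0.133). With PMA/I the values were 0.38 in IL-2 (adjusted P = 0.138, and 0.0462 with the replicate block) and 0.21 after withdrawal (adjusted P = 0.36).

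*Stat3*, the main factor downstream of IL-6 and IL-21, passed in no comparison. It was at 47.0, 56.0 and 35.4 TPM in TB IL-2, 69.1, 70.8 and 56.1 TPM in TB IL-2nil, 57.3, 61.6 and 36.0 TPM in TB+ IL-2 and 92.0, 74.6 and 54.1 TPM in TB+ IL-2nil. Replicate 3 as placed is the lowest in each group, and the groups overlap except for TB IL-2 and TB IL-2nil. The difference with IL-2 was -0.51 in resting cells (95% interval -1.08 to 0.061, adjusted P = 0.14) and -0.51 after PMA/I (-1.08 to 0.064, adjusted P = 0.19), and both passed with the replicate block (adjusted P = 0.0153 and 0.0236). With PMA/I the values were 0.15 (-0.43 to 0.72) in IL-2 and 0.14 (-0.43 to 0.71) after withdrawal.

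In the interaction test, which compares the effect of IL-2 with and without PMA/I, *Stat4* had the largest value, 1.08 (95% interval -0.09 to 2.25, adjusted P = 0.252), and passed with the replicate block (adjusted P = 0.0471). The next were *Jak2* at 0.67 (-0.21 to 1.55, adjusted P = 0.346) and *Jak1* at 0.59 (-0.04 to 1.23, adjusted P = 0.245). The intervals are wide, and differences of more than 1 on the log2 scale are within them for *Stat4*, *Jak2*, *Jak1*, *Tyk2* and *Stat5a*.

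Within a group, the order of the 9 was led by *Jak1* in TB IL-2 (146 ± 17.4 TPM) and TB IL-2nil (408 ± 34.4 TPM) and by *Jak2* in TB+ IL-2 and TB+ IL-2nil, in each case with no overlap with the next gene. In TB IL-2, *Jak3*, *Stat4*, *Stat6*, *Stat3*, *Jak2* and *Stat5b* followed from 66.7 to 33.5 TPM, each overlapping its neighbor, and *Stat5a* (20.8 TPM) and *Tyk2* (20.2 TPM) were lowest. In TB IL-2nil, *Stat4* was the next after *Jak1* at 175 TPM, and *Stat5a* was lowest at 26.2 TPM. After PMA/I *Stat5a* ranked the third, at 71.1 and 123 TPM, with a range that overlaps those of its neighbors, and *Tyk2* was lowest at 12.8 and 16.2 TPM.

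Chains of receptors that recruit these kinases, not all of which bind a kinase themselves, were counted in 2 lists. Like the 9 genes, the lists were chosen with earlier results known. Of 8 chains of the common gamma chain family, 2 were higher and 1 lower with IL-2 in resting cells, where 17.3% of all genes were higher and 22.3% lower. *Il2ra* (IL-2 receptor alpha) was at 442 ± 280 TPM with IL-2 and 71.3 ± 11.5 TPM without (2.45, adjusted P = 0.000476), *Il2rb* (beta) at 450 ± 222 and 155 ± 59.5 TPM (1.48, adjusted P = 0.0163), and *Il7r* (IL-7 receptor) at 54.6 ± 37.0 and 588 ± 235 TPM (-3.54, adjusted P = 0.000406). PMA/I in IL-2 raised 1 and lowered 2 (all genes 11.8% and 23.3%), with *Il15ra* up by 2.07 (adjusted P = 4.76e-05) and *Il4ra* and *Il21r* at -2.03 (adjusted P = 0.000162) and -1.52 (adjusted P = 0.0041). With the block 3 rose there. After withdrawal it raised 3 and lowered 3 (all genes 20.1% and 41.1%), with *Il2ra* at 3.08 (adjusted P = 2.83e-05), *Il15ra* at 2.45 (adjusted P = 5.31e-06) and *Il7r* at -1.71 (adjusted P = 0.0103). With IL-2 after PMA/I, where 8.40% of all genes were lower, 2 were lower, *Il7r* (-1.54, adjusted P = 0.0452, and 0.135 without the relocated libraries) and *Il4ra* (-0.86, adjusted P = 0.0314), and 4 with the block. *Il2ra* also passed the interaction (-2.13, adjusted P = 0.0389), but the list held 0 calls there in 8 of the 12 fits without 1 library, and without the relocated libraries the adjusted P was 0.13. With the block 1 was higher and 1 lower there. The medians of this list in the 4 comparisons were 0.022, -0.16, -0.14 and -0.49, against -0.13, -0.22, -0.38 and -0.042 over all genes. The 2 calls with IL-2 after PMA/I fell to 0 without TB+ IL-2 replicate 2 or TB+ IL-2nil replicate 1 or 3, and to 1 without TB IL-2 replicate 3, TB IL-2nil replicate 2 or the library labelled TB IL-2nil replicate 3.

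The list of 12 chains of the IL-6, IL-12, IL-10, IL-27 and interferon receptors, of which 11 passed the filter, was counted next. PMA/I in IL-2 lowered 5 and raised 1 (6 and 2 with the block), where 23.3% of all genes fell and 11.8% rose. After withdrawal PMA/I lowered 7 and raised 1 (8 and 1 with the block), where 41.1% fell and 20.1% rose. The 2 comparisons had medians of -0.46 and -1.23 against -0.22 and -0.38 over all genes. The largest falls were those of *Il10rb* (-2.52, adjusted P = 1.81e-05, and -2.71, adjusted P = 4.44e-06) and *Ifngr1*, the JAK1-binding chain of the interferon gamma receptor (-1.88, adjusted P = 0.00536, and -2.32, adjusted P = 0.00061), and after withdrawal that of *Ifnar1* (-2.09, adjusted P = 9.82e-05). *Il6st*, the gp130 chain of the IL-6 family, rose with PMA/I in IL-2 (2.23, adjusted P = 0.000242), from 18.3 ± 2.53 to 95.6 ± 45.2 TPM. It was also the gene raised after withdrawal (1.56, adjusted P = 0.000775). With IL-2 in resting cells 4 were lower and 1 higher (all genes 22.3% and 17.3%), with *Il6ra* at -2.43 (adjusted P = 0.0392), *Il6st* at -1.65 (adjusted P = 0.00151) and *Il12rb1* at 1.28 (adjusted P = 0.00465), and 7 were lower with the block. After PMA/I (all genes 12.9% higher and 8.40% lower) *Il12rb1* was higher with IL-2 (1.64, adjusted P = 0.00259) and *Il6st* lower (-0.98, adjusted P = 0.0353, and 0.154 without the relocated libraries). The medians with IL-2 were -0.72 in resting cells and -0.25 after PMA/I, against -0.13 and -0.042 over all genes. The 5 calls in resting cells became 3 without TB IL-2 replicate 2 or TB IL-2nil replicate 2 and 2 without TB IL-2 replicate 3. The interaction passed for none of the 11 (limma), and for 2 with the block.

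Of 19 genes of inhibitors (SOCS proteins, phosphatases, PIAS proteins and others), 4 were higher and 3 lower with IL-2 in resting cells (6 and 4 with the block), where 17.3% of all genes were higher and 22.3% lower. Those of the negative feedback loop led, with *Cish* at 167 ± 27.4 TPM against 15.2 ± 9.98 TPM (3.59, adjusted P = 0.00018), *Socs2* at 149 ± 44.6 against 21.4 ± 6.82 TPM (2.74, adjusted P = 0.000358) and *Socs1* at 252 ± 134 against 57.9 ± 20.1 TPM (2.03, adjusted P = 0.00434). PMA/I after withdrawal raised 10 and lowered 3 (11 and 4 with the block), where 20.1% of all genes rose and 41.1% fell, with *Cish* up by 5.27 (adjusted P = 3.78e-06) to 538 ± 115 TPM, *Socs3* by 2.84 (adjusted P = 8.64e-06) and *Socs1* by 2.62 (adjusted P = 0.000373). In IL-2 it raised 5 and lowered 4 (6 and 4 with the block, all genes 11.8% and 23.3%), among them *Sh2b3*, the gene of the JAK2 inhibitor LNK (1.73, adjusted P = 0.000977), *Pias3* (-1.65, adjusted P = 0.0025) and *Socs1* (-1.34, adjusted P = 0.0339, and 0.0609 without the relocated libraries). After PMA/I (all genes 12.9% higher and 8.40% lower) 1 was higher and 5 lower with IL-2, namely *Socs2* (1.17, adjusted P = 0.0444, and 0.133 without the relocated libraries), *Socs1* (-1.94, adjusted P = 0.0107) and *Socs3* (-1.43, adjusted P = 0.00384) with 3 others, and 2 and 8 with the block. The interaction, which was lower for 2.66% of all genes, passed for *Cish* (-4.46, adjusted P = 0.0108), *Socs1* (-3.96, adjusted P = 0.0125) and *Socs3* (-2.45, adjusted P = 0.0122), of which *Cish* alone did so without the relocated libraries (adjusted P = 0.0306), and for 5 with the block. Of the 9 calls with PMA/I in IL-2, 4 or 5 were left without TB IL-2 replicate 2 or TB+ IL-2 replicate 1 or 2, and of the 6 with IL-2 after PMA/I, 2 or 3 without the library labelled TB IL-2nil replicate 3, TB+ IL-2 replicate 1 or 2 or TB+ IL-2nil replicate 1. The medians over the list were -0.19, 0.32, 0.64 and -0.39 for IL-2 in resting cells, PMA/I in IL-2, PMA/I after withdrawal and IL-2 after PMA/I, against -0.13, -0.22, -0.38 and -0.042 over all genes.

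Of 18 genes known as STAT5 targets, 5 of which are also in the lists above, 13 were higher and 1 lower with IL-2 in resting cells (15 and 1 with the block), with a median of 1.96. The values over all genes were 17.3% higher, 22.3% lower and a median of -0.13. *Gzmb* (granzyme B) was at 521 ± 115 against 11.0 ± 8.57 TPM (5.81, adjusted P = 7.59e-05) and *Lif* at 35.3 ± 11.7 against 0.91 ± 0.16 TPM (4.20, adjusted P = 0.000497). In these groups most STAT5 targets were higher with IL-2 where the transcripts of *Stat5b* and *Jak1* were lower. By the paper's western blots, total STAT5 protein did not change with IL-2, while its phosphorylation depended on IL-2. How these measures relate to each other was not tested here. PMA/I after withdrawal raised 12 and lowered 2 (median 2.23, against 20.1%, 41.1% and -0.38 over all genes), with *Lif* at 8.29 (adjusted P = 2.02e-06) and *Myc* at 6.36 (adjusted P = 2.53e-06), and in IL-2 it raised 5 and lowered 3 (6 and 3 with the block, median 0.18, against 11.8%, 23.3% and -0.22), with *Lif* at 3.49 (adjusted P = 0.00137), *Myc* at 2.63 (adjusted P = 0.00188) and *Osm* at -2.54 (adjusted P = 0.000341). After PMA/I 4 were higher and 2 lower with IL-2 (4 and 3 with the block, median -0.36, against 12.9%, 8.40% and -0.042), among them *Gzmb* at 3.48 (adjusted P = 0.00205) and *Cdk6* at 1.52 (adjusted P = 0.0196, and 0.0677 without the relocated libraries). The interaction was lower for 8 of the 18 (9 with the block, median -1.85, against 2.66% and 0.16), with *Lif* at -4.80 (adjusted P = 0.0198, and 0.0824 without the relocated libraries), and for 1, *Cish*, without the relocated libraries. Leaving out 1 library gave 3 to 9 calls there, with 3 without TB IL-2nil replicate 2, 4 without the library labelled TB IL-2nil replicate 3, and 5 without TB IL-2 replicate 2, TB+ IL-2 replicate 2 or TB+ IL-2nil replicate 1. The 6 calls with IL-2 after PMA/I became 3 without the library labelled TB IL-2nil replicate 3, and the 8 with PMA/I in IL-2 became 5 without TB+ IL-2 replicate 2. Without the relocated libraries, the other counts of the 4 lists stayed within 3 genes of these in each direction, while as labelled at most 4 genes of a list passed in any comparison.

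**Figure D4:**
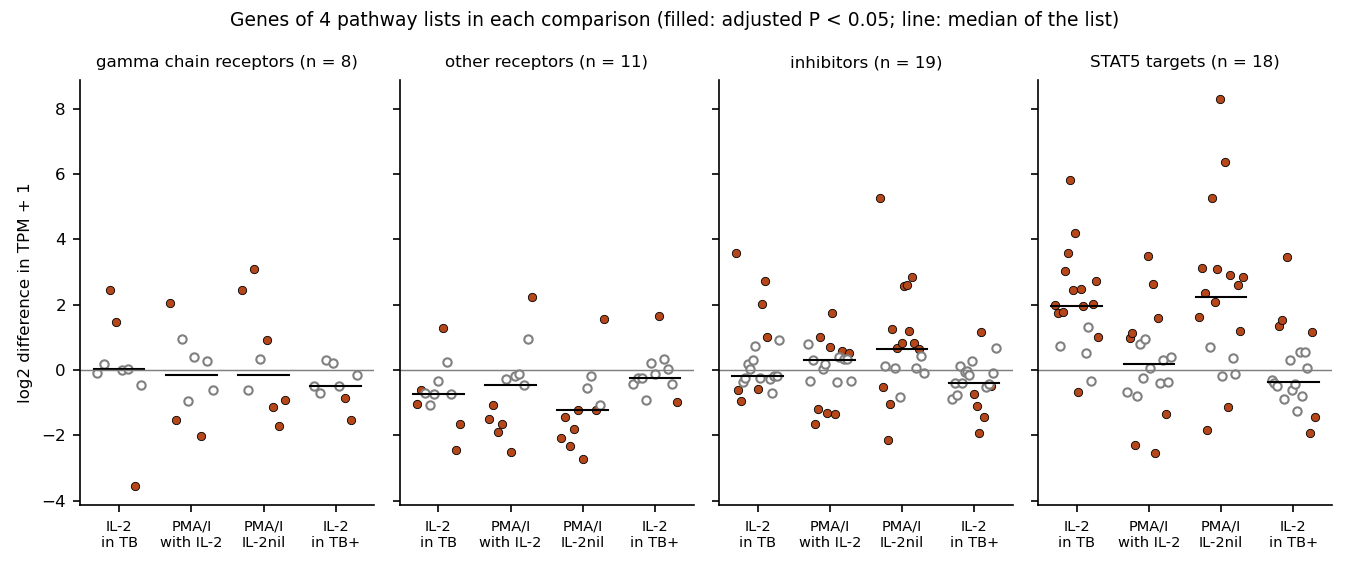
Log2 differences in TPM + 1 (y axis) of the genes of 4 pathway lists in 4 comparisons (x axis). Each point is a gene, filled where the adjusted P was under 0.05, and lines are the medians of a list. For STAT5 targets the medians are 1.96, 0.18, 2.23 and -0.36 from left to right.

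Over the 12 libraries, *Jak2* and *Stat5a* were the members whose log2 levels were most alike (Pearson's r = 0.918, Spearman's rho = 0.944), followed by *Jak1* and *Tyk2* (r = 0.862) and *Jak1* and *Stat4* (r = 0.793), whereas *Stat5a* and *Stat5b* had an r of 0.129. Such values are taken over all 12 libraries of the 4 groups together, so differences between groups and deviations within groups both enter them. The part of each was not tested, and the values are given without a test. The genes most like *Jak2* among 12442 were *Rab11fip1* (r = 0.990), *Bcl2a1b* (0.990) and *Ptpn22* (0.989), those most like *Stat5a* were *Alcam* (0.976), *Zeb2* (0.976) and *Zfp827* (0.973), and those most like *Jak1* were *Asap1* (0.993), *Camk1d* (0.981) and *Pnpla7* (0.979). For *Tyk2* they were *Herpud2* (0.980), *Dtnb* (0.978) and *Ikbke* (0.977), for *Stat4* *Sh3kbp1* (0.963), *Hpcal1* (0.958) and *Ubac2* (0.958), for *Stat6* *Atg2b* (0.968), *Atg16l1* (0.966) and *Use1* (0.959), and for *Stat5b* *Klrd1* (0.958), *Ppm1b* (0.952) and *Ctu1* (0.950). The closest genes were less close for *Stat3*, with *Rsbn1* (0.945), *Sdf4* (0.944) and *Mettl3* (0.942), and for *Jak3*, with *Adam15* (0.873), *Ift43* (0.869) and *Srrm1* (0.865). Of these genes, *Ift43* was at 0 to 1.79 TPM, near the filter, and *Zeb2* reached down to 0.0975 TPM, so their values are less certain. By Spearman's rho, *Herpud2*, *Dtnb* and *Ikbke* shared the top rank for *Tyk2* at 0.993, while *Zeb2* was at rank 159 for *Stat5a* (rho = 0.895) and *Camk1d* at rank 128 for *Jak1* (rho = 0.937). *Rab11fip1*, the first by Pearson's r for *Jak2*, was at rank 125 by rho (0.937).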

How the data were processed

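Libraries were rRNA-depleted, directional and paired-end. The authors used Trimmomatic 0.32 for trimming, HISAT2 2.1.0 for alignment (mm9) and StringTie 1.3.3 for quantification of RefSeq models (versions per the submitters' processing notes). The deposited values are FPKM per gene name, not normalized between libraries (sums of 193815 to 420487), although the methods name TPM.

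FPKM were converted to TPM (sum 1000000), and 12442 genes with over 1 TPM in any library were tested. Libraries were brought to 1 common 75th percentile, as the study's methods state. The values of the study's own gene table were instead met by quantile normalization, which is among the alternatives here. Log2(TPM + 1) was modelled with limma 3.58.1 in R 4.3.3 (groups as the only term, 8 residual degrees of freedom), with Benjamini-Hochberg adjustment over all genes. The fit was also run on simulated data with independent noise in each library. That setting leaves out the shared deviations of same-numbered libraries described below. Folds are on this scale, which understates changes at low levels. Genes rose or fell at an adjusted P under 0.05, and 3-fold is the size used in the study. Summaries and figures used Python 3.11.15 (numpy 2.4.6, pandas 2.3.3, matplotlib 3.10.9). Low values are least certain in TB IL-2nil replicate 2, the shallowest library.

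Libraries with the same replicate number deviated together from their group means (18 correlations, 0.101 to 0.531, as placed). The labels do not say what a number stands for or whether replicates are separate mice, so P-values measure the spread between these libraries only, and the fit with a replicate block is given where it changes the call of a member or the count of a list.

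Members and lists were chosen with earlier results of these data known. Named were all 9 members, up to 3 called genes with the largest difference per list and comparison, and the 3 genes best correlated with each member. The value of *Il6st* for PMA/I after withdrawal was added to these. Alternatives were the labels as given, leaving out both relocated libraries or each library, the block, pseudocounts of 0.1 and 10 TPM, no filter, over 5 TPM in at least 3 libraries, no scaling, quantile normalization, a trend, and Spearman's rho. Of other markers, 3 of 5 myeloid genes (summed level 1.57 to 4.88 TPM), 0 of 3 NK cell genes and both regulatory T cell genes (1.32 to 9.51 TPM) passed the filter.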

Additional observations from a re-analysis of the deposited data

How the results depend on the processing

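Of 990 values of the 9 genes (45 differences under 22 alternatives), 889 kept their direction and their side of the threshold, 48 lost their call, 13 gained one and 40 changed sign, the last all among differences that did not pass. The cause of these shifts was not tested. Taken as labelled, 0 members passed in each of the 4 comparisons, and reversed were *Jak1* (0.14), *Jak3* (-0.019), *Stat4* (0.62) and *Stat5b* (0.30) for PMA/I in IL-2, *Stat4* (0.12) and *Tyk2* (0.12) for IL-2 after PMA/I and *Stat5b* (0.10) for PMA/I after withdrawal. With the replicate block, 4 members passed for PMA/I in IL-2 (with *Stat6* at 0.38 and *Tyk2* at -0.61 added), 5 for IL-2 after PMA/I and 1 for the interaction, and besides the calls given above the block changed no other call of a member. For IL-2 after PMA/I, 1 member passed without both relocated libraries and 0 without scaling, and leaving out 1 library gave 1 to 4. Over all genes, the median difference for PMA/I after withdrawal was -0.38, -0.78 without scaling and -0.14 with quantile normalization, and 32.8, 17.6 and 43.5% of the called genes were higher. For IL-2 after PMA/I these were -0.042, 0.23 and -0.072, with 60.5, 96.1 and 56.9% higher, and for PMA/I in IL-2 -0.22, -0.29 and -0.10, with 33.6, 38.4 and 46.4% higher. Without scaling, *Jak3* (-0.030), for PMA/I in IL-2, *Jak3* (-0.41), *Stat3* (-0.41) and *Stat6* (-0.34), for PMA/I after withdrawal, *Tyk2* (0.055), for IL-2 after PMA/I, and the interactions of *Jak3* (0.38) and *Stat5a* (0.048) changed sign. With quantile normalization the same held for *Jak3* (-0.094) in the former, and *Jak3* (-0.056), *Stat3* (-0.11) and *Stat6* (-0.14) after withdrawal. For PMA/I in IL-2, *Stat4* (0.13) and *Stat5b* (0.046) reversed without a filter and *Jak3* (-0.026) with the stricter one. The interaction of *Stat3* did so without a filter (-0.045) and with a pseudocount of 10 TPM (-0.0042). Leaving out 1 library, values that crossed 0 ranged from -0.047 to 0.14 for *Jak3*, -0.027 to 0.38 for *Stat3*, -0.40 to 0.33 for *Stat4* and -0.26 to 0.014 for *Stat5b* (PMA/I in IL-2), from -0.033 to 0.34 for *Stat3* (PMA/I after withdrawal), and in the interaction from -0.23 to 0.023 for *Jak3*, -0.20 to 0.24 for *Stat3* and -0.77 to 0.0091 for *Stat5a*. Over all genes, the interaction was called for 526 genes, for 1478 with the block, 0 as labelled, 4 without both relocated libraries, 1 without scaling, 241 and 958 with pseudocounts of 0.1 and 10 TPM, and 84 to 1302 without 1 library. As labelled, the 4 other comparisons called 15, 62, 669 and 27 genes against 4929, 4372, 7614 and 2644 (IL-2, PMA/I in IL-2, PMA/I after withdrawal, IL-2 after PMA/I). Without scaling the counts were 2650 and 2434 for IL-2 and PMA/I in IL-2 and 1486 for IL-2 after PMA/I, which had 1200 without both relocated libraries, 4186 with the block and 1427 or 1544 without the library labelled TB IL-2nil replicate 3 or TB+ IL-2nil replicate 1. The files hold no counts, so limits set by depth could not be computed.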
